A study of Mus musculus with 6 samples.

Results

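The anterior pituitary builds its hormone cells under a small set of transcription factors. Pitx1, Lhx3, Lhx4 and Hesx1 act early, in the primordium and its progenitors. Tbx19 and Neurod1 mark the corticotrope branch, which makes Pomc, the corticotropin precursor. Nr5a1 and Gata2 mark the gonadotrope and thyrotrope branches, which make luteinising, follicle stimulating and thyroid stimulating hormone. These 8 genes were taken as a named set, and every probe whose gene name on the array equals one of them was used. They are 8 of 22127 genes with a symbol and have 9 probes of the 39429 on the array, with 2 for Neurod1 and 1 for each other gene.

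RNA came from anterior pituitaries of female mice, from their side population, the cells that pump out Hoechst dye, sorted by flow cytometry with the cells of highest Sca1 left out. All mice carried the inducible diphtheria toxin receptor iDTR and were given toxin 2 times daily, each dose 4 ng for every g of body weight. Control mice (-/iDTR) had no Cre, and GHCre/iDTR mice had Cre driven from the growth hormone gene, so that toxin ablates growth hormone cells. Toxin was given for 3 days (2 control and 2 GHCre arrays) or 10 days (1 control and 1 GHCre array). The labels give no age and do not say how many animals went into an array, so p-values measure only the spread between these arrays, though the design text calls the pairs independent samples. Free-text descriptions of 3 arrays disagree with their titles, and the groups follow the titles, which match the genotype and treatment fields. The 6 arrays lie on 3 slides. Slide 1 holds replicate 1 of both 3 day groups. Slide 2 holds the 10 day control alone. Slide 3 holds replicate 2 of both 3 day groups and the 10 day GHCre array. For every gene, genotype and slide cannot be told apart after 10 days. Levels are log2 processed signals minus the log2 of the array's 75th percentile, so 0 is the level of that percentile, and they can be compared across arrays for a probe but not between probes. In such bulk samples, fewer cells of a type and less RNA per cell cannot be told apart. Replicate 1 of the 3 day controls stood apart, with 53.8% of probes well above background and a 75th percentile of 186 units, against 61.4% to 65.7% and 251 to 299 units on the other arrays.

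Gh, the transcript of the targeted cells, stood at 5.69 and 3.65 in the 3 day controls, 5.46 and 2.20 in the 3 day GHCre arrays, 7.86 in the 10 day control and 2.21 in the 10 day GHCre array. After 3 days 1 GHCre array lies between the controls and the other below both. Sox2, which defines pituitary stem cells, was not above background on any array. Sox9, S100b, Gfra2, Krt8 and Krt18, which mark stem and folliculostellate cells, were above background on all 6.

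A pair of stretches 250 bases long, upstream of the annotated starts of Tbx19 and Neurod1, is shown because these corticotrope factors share the array on which they were highest, with 1 of the 2 Neurod1 probes in the case of Neurod1. The sequences are those of RefSeq, build GRCm38.p6, 5′ to 3′ on the strand of the gene. Capitals mark matches to 6 motifs searched on both strands: TAATCC (bicoid type, bound by PITX factors), TAATTA (LIM homeodomain type), GATA, the E-box CANNTG of basic helix-loop-helix factors such as NEUROD1, the T-box site TCACACC and the NR5A site AAGGTCA.
Tbx19, chr1:165160774-165161023, minus strand: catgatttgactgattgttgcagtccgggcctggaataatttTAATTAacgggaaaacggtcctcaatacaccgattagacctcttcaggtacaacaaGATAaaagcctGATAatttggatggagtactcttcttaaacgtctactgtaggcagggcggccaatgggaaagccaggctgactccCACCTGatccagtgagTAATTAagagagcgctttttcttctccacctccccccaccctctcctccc
Neurod1, chr2:79456637-79456886, minus strand: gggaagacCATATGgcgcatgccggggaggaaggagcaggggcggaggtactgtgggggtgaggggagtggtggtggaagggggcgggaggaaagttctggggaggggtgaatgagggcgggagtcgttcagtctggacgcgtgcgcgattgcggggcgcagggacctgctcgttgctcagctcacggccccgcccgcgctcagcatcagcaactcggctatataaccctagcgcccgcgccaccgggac
The Tbx19 stretch holds 2 TAATTA, 2 GATA and 1 E-box match, and no match overlaps another. The Neurod1 stretch holds 1 E-box match. Among 32851 upstream stretches of the same length, 4.84% hold TAATTA, 53.6% GATA, 66.2% an E-box, 6.25% TAATCC, 3.33% TCACACC and 4.08% AAGGTCA. None of the 8 stretches found for 6 of the 8 genes (Pitx1 and Nr5a1 are not among them) holds a match to the bicoid, T-box or NR5A motif. These are letter matches in 250 bases and show no binding.

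The genes divided by detection. Pitx1, Lhx3, Nr5a1 and Gata2 were well above background on all 6 arrays, as were 46.6% of all probes. Lhx4 and Hesx1 were above background on none, as were 22.8% of all probes, and they were not tested. Tbx19 was above background on 2 arrays, both of them 3 day controls, and the Neurod1 probes on 2 and 3 arrays. In all, 7 probes of 6 genes met the requirement of signal on at least 2 arrays and were tested among 27249 probes.

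**Figure D1:**
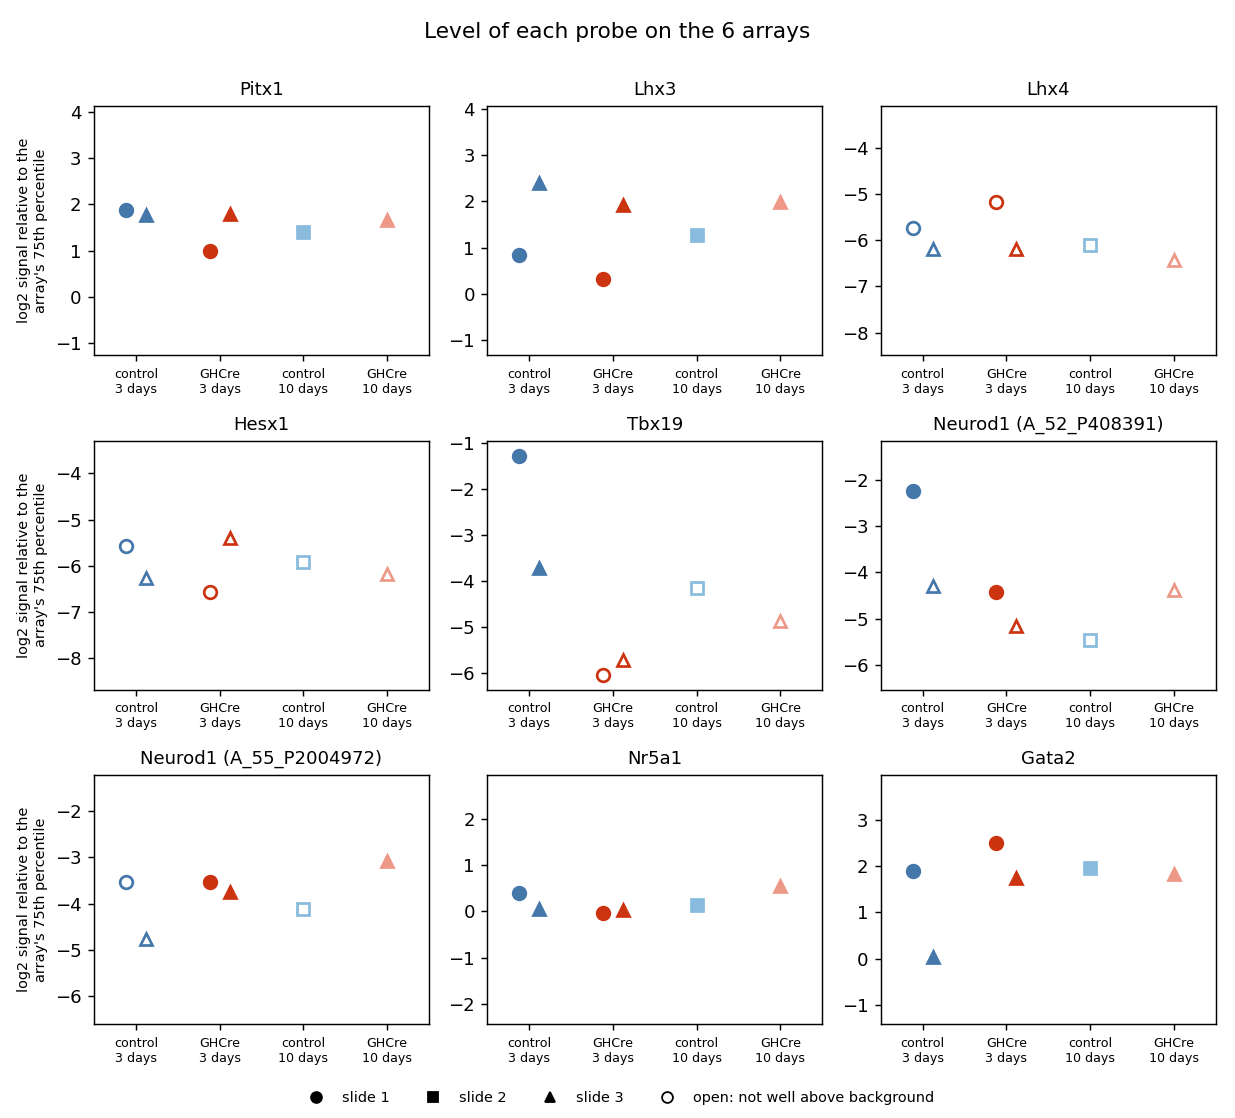
Level of each of the 9 probes on the 6 arrays, by genotype and day, in log2 units above or below the array's 75th percentile of signal, with the symbol giving the slide and open symbols marking signal not well above background. Pitx1, Lhx3, Nr5a1 and Gata2 have filled symbols on all 6 arrays, Lhx4 and Hesx1 have none, and Tbx19 has filled symbols in the 3 day controls alone.

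After 3 days, 0 of the 7 tested probes passed an adjusted p of 0.05 in limma's moderated test, as did 0% of all probes tested, with 1 of 7 (Tbx19) against 6.67% of all probes at an unadjusted p under 0.05. That count was 0 with normexp background correction under either scaling, 0 when either array of the GHCre group was left out, and 2 when either control array was. GHCre arrays lay below both controls for 3 of the 7 probes, Tbx19, 1 of the Neurod1 probes and Nr5a1, where 20.5% of all probes did so. They lay above both controls for 0 of the 7, where 17.1% of all probes did so. In either direction this makes 3 of 7, against 37.6% of all probes. Tbx19, also the probe of low unadjusted p, met the background filter through the controls alone, so it adds no support to these counts. The Neurod1 probe was not above background on either 3 day array of slide 3, and Nr5a1 differed by only -0.011 on that slide. With 2 arrays against 2, an exact two-sided permutation test of a single probe cannot go below p = 0.333.

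Tbx19, also called Tpit, is the T-box factor that turns on Pomc in corticotropes. Its probe lies at chr1:167068819-167068878 on the minus strand (mm9). It stood at -1.28 and -3.71 in the 3 day controls, at -6.03 and -5.72 in the GHCre arrays, at -4.16 in the 10 day control and at -4.86 in the 10 day GHCre array. Both 3 day controls were well above background, and no other array was. With each GHCre array set to the lowest signal called above background there for any probe, Tbx19 was 3.57-fold lower in GHCre mice after 3 days. This nominal bound is not a strict limit, since signals above that lowest one can miss the call. On replicate 1 of the 3 day controls, Neurod1 probe A_55_P2004972 missed it at -3.54, where the lowest signal called was -3.59. The measured means were -2.50 in controls and -5.88 in GHCre mice, a log2 difference of -3.38 ± 0.96 (SE, 2 arrays a group, adjusted p = 0.706 with limma), which does not pass. The difference had the same sign within both slides, at -4.75 on slide 1 and -2.01 on slide 3. With normexp background correction the difference was -1.04, or -0.86 after quantile normalization, both smaller than the bound, which was computed from the processed signal alone. The bound rests on replicate 1 of the controls: without that array it was 1.54-fold, and without replicate 2 of the controls 8.28-fold. Tbx19 was tested only because both controls reached the background filter, so a difference was fixed by the choice. Of all probes tested, 0.811% were above background on both controls and on no GHCre array. After 10 days Tbx19 was below background in both genotypes, and no difference is given.

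Neurod1 encodes a basic helix-loop-helix factor that acts with Tbx19 and Pitx1 at the Pomc promoter. Its probes gave values near background that point opposite ways. The first, A_52_P408391, at chr2:79293621-79293680 (mm9), stood at -2.23 and -4.29 in the 3 day controls, -4.43 and -5.15 in the GHCre arrays, -5.46 in the 10 day control and -4.39 in the 10 day GHCre array. It was above background in replicate 1 of each 3 day group alone, and its difference after 3 days was -1.53 ± 0.88 (adjusted p = 0.856). Slide 1 gave -2.20 and slide 3 gave -0.86. The second, A_55_P2004972, at chr2:79294309-79294368, gave -3.54 and -4.76 in the 3 day controls, where it missed the background limit. It gave -3.52 and -3.74 in the GHCre arrays, a nominal bound of 1.16-fold higher. Of all probes tested, 2.48% were above background on both GHCre arrays and on no control after 3 days, as this one was. Its measured difference was 0.52 ± 0.60 (adjusted p = 0.910), which turned to -0.17 with another background correction (normexp) and to -0.089 without replicate 2 of the controls. After 10 days the control, at -4.12, was below background and the GHCre array, at -3.07, was not, a nominal bound of 1.83-fold higher. These 2 arrays lie on different slides, so genotype and slide cannot be told apart there. The second probe was tested only because GHCre arrays reached the background filter, so the choice favoured a higher level in GHCre mice. It did not fix the sign, which turned after 3 days in the settings above. The first was measured on 1 array of each 3 day group. Neither passed the test, and no direction is given for Neurod1. Neurod1 is encoded on the minus strand, and the second probe, shown because it was above background on all 3 GHCre arrays and on no control, reads as follows.
A_55_P2004972: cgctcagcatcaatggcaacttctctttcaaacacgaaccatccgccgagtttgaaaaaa
It has 45.0% G and C, and 2 of its 3 forward reading frames hold no stop codon. The first probe has 23.3% G and C and 0 of 3 such frames. Neither was saturated.

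Tbx19, the first Neurod1 probe and Pitx1 were each highest on replicate 1 of the 3 day controls, the array of fewest probes above background, 3 of 7 tested probes where 22.4% of all probes were. Of the corticotrope genes of a separate list, this held for 3 of 6, Avpr1b and Crhr1 among them, where 21.3% of genes with a symbol did. Tbx19, this Neurod1 probe and Avpr1b were above background on only 2 arrays, this array among them, and met the filter through it. Both counts therefore lean to this array by the choice of probes and add no support. Avpr1b, the vasopressin receptor of corticotropes, stood at -0.53 and -3.87 in the 3 day controls, both above background. It stood at -5.48 and -4.56 in the GHCre arrays, not above background, a nominal bound of 4.39-fold lower. On the log2 scale this bound was -2.13, without replicate 1 of the controls -0.46 (1.38-fold) and without replicate 2 -3.81. Like Tbx19, Avpr1b was tested only because both 3 day controls reached the background filter, so its direction was fixed by that and adds no support. Crhr1, the receptor of corticotropin releasing hormone, differed by -0.34 ± 0.79. Of the 6 corticotrope genes, 5 were lower in GHCre mice after 3 days, where 48.9% of all genes were, with a median of -0.69 against 0.02 for all genes. Avpr1b, with its direction fixed by the filter, is in this count and median. After 10 days 4 were higher and 2 lower, with a median of 0.33, and 0 passed on either day. The lower levels after 3 days were not particular to corticotrope genes: 6 of 7 somatotrope and lactotrope genes were lower, with a median of -0.61. Of gonadotrope genes 2 of 5 were lower, and of thyrotrope genes 1 of 4. Pomc stood at 5.65 and 1.12 in the 3 day controls, 4.09 and 0.90 in the GHCre arrays, 5.79 in the 10 day control and 1.93 in the 10 day GHCre array. It was lower in GHCre mice within both slides, and its high and low arrays divide by slide. Markers of the intermediate lobe, which also makes Pomc and Tbx19 and which was dissected away per the labels, were lower after 3 days for 4 of 4 tested (Pomc among them), and for 2 of 4 after 10 days. Their summed signal was 256 and 175 times the 75th percentile in the 3 day controls against 153 and 148 in the GHCre arrays. Most of that sum is Oacyl, whose controls were at 7.66 and 7.37 and GHCre arrays at 7.07 and 7.08, with Pax7, their defining factor, not above background on any array. The part of these markers in the Tbx19 difference was not tested.

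**Figure D2:**
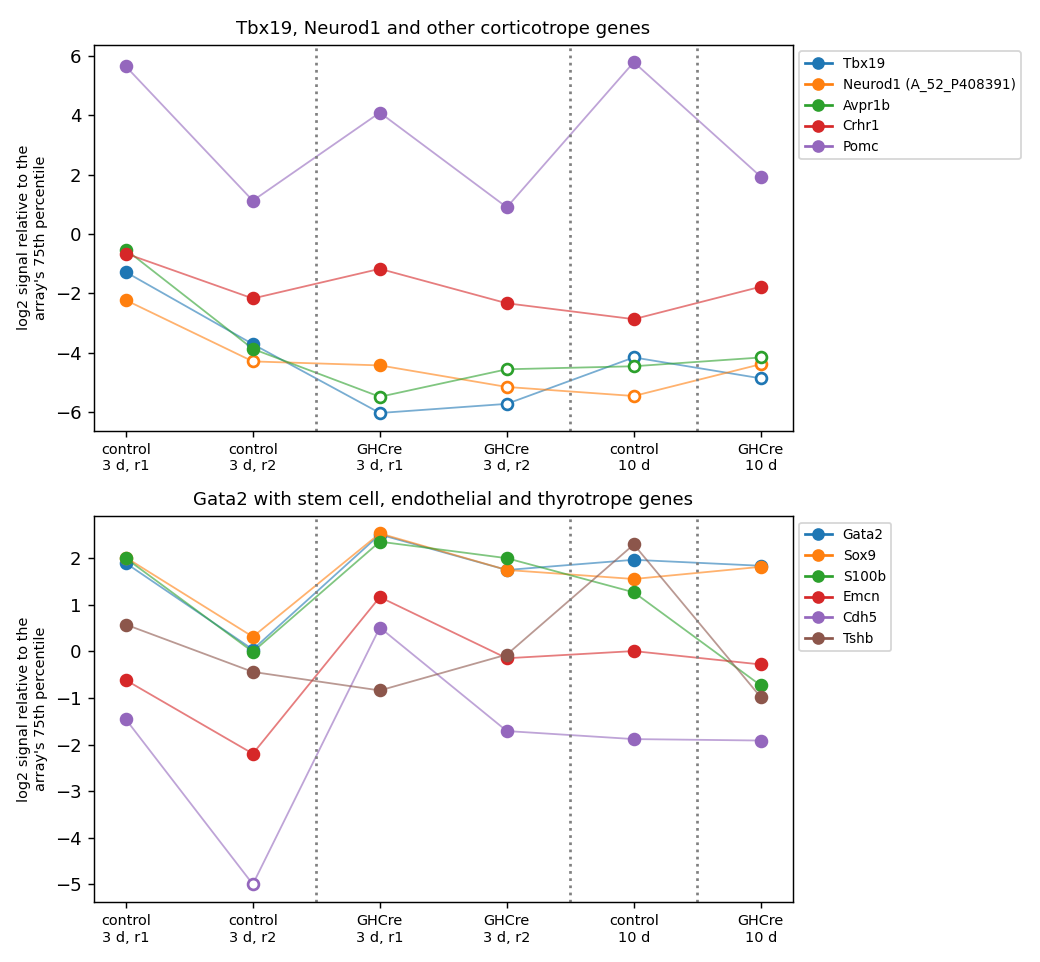
Levels on the 6 arrays, in log2 units above or below the array's 75th percentile of signal, of Tbx19 and 1 Neurod1 probe with other corticotrope genes (top) and of Gata2 with stem cell, endothelial and thyrotrope genes (bottom), with open symbols not well above background and lines only joining a gene's values. Tbx19 and Avpr1b have filled symbols on the 3 day controls alone, and Gata2 and Sox9 are both lowest on replicate 2 of the 3 day controls, at 0.04 and 0.32.

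Gata2 encodes a zinc finger factor needed for thyrotropes and gonadotropes, and it is also made by endothelial and blood progenitor cells. Its probe lies at chr6:88156362-88156421 (mm9). It stood at 1.90 and 0.04 in the 3 day controls, 2.51 and 1.75 in the GHCre arrays, 1.97 in the 10 day control and 1.84 in the 10 day GHCre array. A single array, replicate 2 of the 3 day controls, lies apart at the low end, and the 3 day groups overlap. Gata2 also divided by slide, opposite to Lhx3 below. Slide 1 held 1.90 and 2.51, slide 2 held 1.97, and slide 3 held 0.04 to 1.84. Of genes above background on all arrays, 11.8% had both arrays of slide 1 above all 3 of slide 3. The difference after 3 days was 1.16 ± 0.82 (2.24-fold, adjusted p = 0.873). Slide 1 gave 0.62 and slide 3 gave 1.71. Without replicate 2 of the controls it was 0.23, and without replicate 1 it was 2.09. After 10 days it was -0.13 ± 1.16. The 5.54-fold range of Gata2 over the 6 arrays is at percentile 80.8 of the 18379 probes above background on all arrays.

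The array of lowest Gata2 was also the lowest, or next to it, in several markers of other cells, named here after their values were seen. Sox9 stood at 2.02 and 0.32 in the 3 day controls, 2.54 and 1.75 in the GHCre arrays, 1.56 in the 10 day control and 1.82 in the 10 day GHCre array. S100b, a calcium binding protein of folliculostellate and stem cells, was at -0.01 on that array and at 2.00 to 2.36 on the other 3 day arrays, but lower still, at -0.73, on the 10 day GHCre array. Of the endothelial list, Emcn was at -2.20 there and between -0.62 and 1.17 on the other arrays, and Cdh5, the cadherin of endothelium, at -5.00 (not above background) against -1.91 to 0.51. Others went the opposite way: Eng, at 1.47, and the stem cell marker Krt18, at 2.75, were highest on that array, and Kdr, at 1.77, was next to highest. In the endothelial list 6 of 7 tested genes were higher in GHCre mice after 3 days, where 51.1% of all genes were, with a median of 0.44, and 2 of 7 after 10 days, with a median of -0.29. The endothelial sum was 6.92 and 7.28 in the 3 day controls, 9.72 and 8.48 in the GHCre arrays, 7.21 in the 10 day control and 6.38 in the 10 day GHCre array, so the array of lowest Gata2 was not lowest in it. Tie1 was not above background on any array. Fibroblast and pericyte markers were higher after 3 days for 9 of 10, with a median of 0.60 and sums of 207 and 137 in controls against 267 and 219. For 6 of these 10 the GHCre arrays lay above both controls, where 18.6% of genes did so. After 10 days 3 of 10 were higher and 7 lower, with a median of -0.41. The part of these cells in the Gata2 values was not tested. Of the blood and mast cell list, Kit, Csf1r, Cd3e, Ptprc and Cd68 were above background on all 6 arrays, the mast cell gene Cma1 on replicate 1 of the 3 day controls alone, and Cpa3 and Ms4a2 on none.

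Tshb, the beta subunit of thyroid stimulating hormone and a target of Gata2, stood at 0.58 and -0.44 in the 3 day controls, -0.84 and -0.07 in the GHCre arrays, 2.30 in the 10 day control and -0.98 in the 10 day GHCre array. Of 4 thyrotrope genes tested, 3 were higher in GHCre mice after 3 days (median 0.32) and 2 of 4 after 10 days (median -1.32), with 0 past the test on either day.

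Nr5a1, or SF-1, is the nuclear receptor that specifies gonadotropes and activates Lhb and Gnrhr. Its probe lies at chr2:38548180-38548239 on the minus strand (mm9). It was the steadiest of the set. Levels were 0.40 and 0.05 in the 3 day controls, -0.04 and 0.04 in the GHCre arrays, 0.15 in the 10 day control and 0.55 in the 10 day GHCre array. The whole range was 1.51-fold, at percentile 10.2 of probes above background on all arrays. The difference after 3 days was -0.23 ± 0.44 (adjusted p = 0.942). It was -0.44 on slide 1 and -0.011 on slide 3. After 10 days it was 0.40 ± 0.62. The gonadotrope hormones ranged far more widely. Lhb stood at 0.86 and -1.20 in the 3 day controls, 2.08 and -0.90 in the GHCre arrays, 2.72 in the 10 day control and -0.98 in the 10 day GHCre array. Cga, the shared alpha subunit, was lowest in the second of the 3 day controls, at -3.47, and highest in the 10 day control, at 3.88. Gnrhr, the receptor of gonadotropin releasing hormone, was above background in replicate 1 of the 3 day controls (-2.51) and in the 10 day control (-2.69) alone, and Fshb on no array. Gonadotrope genes had 3 of 5 higher in GHCre mice after 3 days (median 0.15) and 2 of 5 after 10 days (median -3.70), where slide and genotype cannot be told apart, with 0 past the test on either day.

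Pitx1 is the bicoid type factor active in all pituitary lineages. Its probe lies at chr13:55926417-55926476 on the minus strand (mm9). It stood at 1.87 and 1.77 in the 3 day controls, 1.00 and 1.79 in the GHCre arrays, 1.40 in the 10 day control and 1.66 in the 10 day GHCre array. Replicate 1 of the 3 day GHCre group is the low array, and the groups overlap. The difference after 3 days was -0.43 ± 0.50 (adjusted p = 0.912). It was -0.87 on slide 1 and 0.013 on slide 3. After 10 days it was 0.26 ± 0.71. Without that array the 3 day difference was -0.034. The range of Pitx1 was 1.83-fold, at percentile 23.1.

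Lhx3 encodes the LIM homeodomain factor that maintains the pituitary primordium and works with Pitx1 on the genes of several hormones. Its probe lies at chr2:26055746-26055805 on the minus strand (mm9). Lhx3 stood at 0.84 and 2.41 in the 3 day controls, 0.33 and 1.92 in the GHCre arrays, 1.28 in the 10 day control and 1.99 in the 10 day GHCre array. The values were ordered by slide. Slide 1 held 0.33 and 0.84, slide 2 held 1.28, and slide 3 held 1.92 to 2.41. Replicate 1 lay below replicate 2 by 1.57 in the controls and by 1.59 in the GHCre group. Between genotypes Lhx3 differed by -0.50 ± 0.89 after 3 days (adjusted p = 0.937). Slide 1 gave -0.51 and slide 3 gave -0.49. With slide as a block its SE is 0.41 (adjusted p = 0.780 with limma). The difference itself cannot change there, since slides 1 and 3 each hold 1 array of each 3 day group. Its sign turned when control replicate 2 (0.29) or GHCre replicate 1 (0.30) was left out. Each of these omissions left that group on 1 slide alone, with the other 3 day group on slides 1 and 3. After 10 days the difference was 0.71 ± 1.26. Its control array occupies a slide by itself, and genotype and slide cannot be told apart there. Of the probes above background on all arrays, 13.7% had both arrays of slide 1 below all 3 of slide 3, and 0.865% had a gap between them at least as large as the 1.08 of Lhx3.

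**Figure D3:**
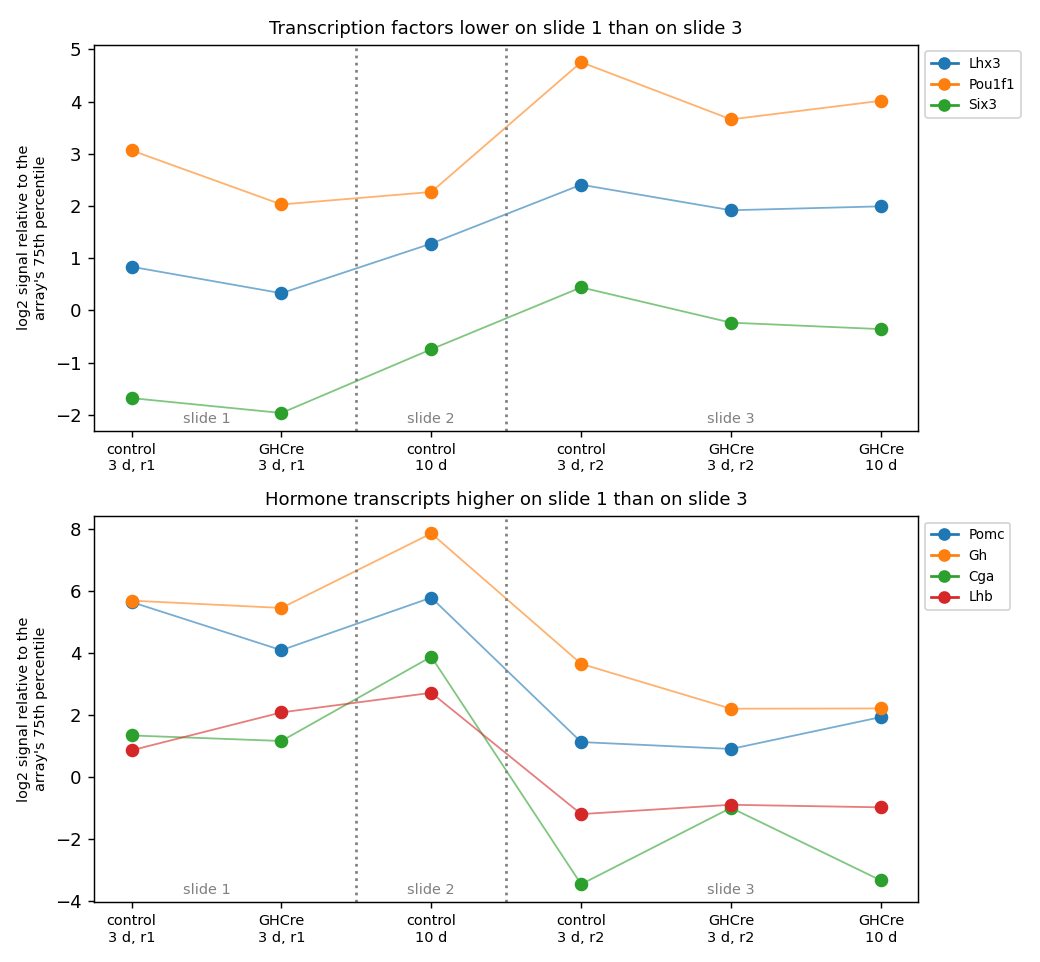
Levels of Lhx3, Pou1f1 and Six3 (top) and of the hormone transcripts Pomc, Gh, Cga and Lhb (bottom) on the 6 arrays ordered by slide, in log2 units above or below the array's 75th percentile of signal, with lines only joining a gene's values. In the top panel both arrays of slide 1 lie below all 3 of slide 3, as for Lhx3 at 0.84 or less against 1.92 or more, and in the bottom panel both lie above them.

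Other transcription factors of the pituitary divided by slide in the direction of Lhx3 more often than in the opposite direction, counted after this pattern was seen. Of 19 of them above background on all arrays, 7 had slide 1 below slide 3, where 13.7% of all genes did, and 2 had it above, where 11.8% did. Those named here because of this order are Pou1f1, Six3, Msx1, Zbtb20, Nr4a1 and Nr4a2. Pou1f1, the factor of growth hormone, prolactin and thyrotropin cells, stood at 3.07 and 2.03 on slide 1, 2.27 on slide 2 and 3.66 to 4.75 on slide 3. The hormone transcripts Pomc, Gh, Cga and Lhb took the opposite order, above on slide 1, and are named because of it. Prl, at 11.08 and 10.59 on slide 1, 10.49 on slide 2 and 10.35 to 11.06 on slide 3, did not divide by slide, nor did Tshb. Pomc was at 4.09 and 5.65 on slide 1, 5.79 on slide 2 and no higher than 1.93 on slide 3, and Gh was at 5.46 and 5.69, 7.86 and no higher than 3.65. The 10 day control had high levels of these 4 hormones, as slide 1 did, and the 10 day GHCre array had low levels, as the rest of slide 3 did. For Gh and Lhb the value of the 10 day GHCre array differed little from that of replicate 2 of the 3 day GHCre group on the same slide, with Gh at 2.21 and 2.20 and Lhb at -0.98 and -0.90. Pomc, at 1.93 and 0.90, differed more, and so did Cga. The arrays compared here share genotype as well as slide. The 3 day control on that slide had Gh higher, at 3.65, and Lhb lower, at -1.20. Genotype and slide cannot be told apart in the 10 day comparison of these genes.

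Lhx4, the paralog of Lhx3, and Hesx1, the early homeobox repressor of the primordium, gave no signal above background. Lhx4, at chr1:157548856-157548915 (mm9), lay between -6.42 and -5.16, and Hesx1, at chr14:27815304-27815363, between -6.58 and -5.40. The lowest signal called above background lay between -4.64 and -3.59 on the 6 arrays, above every value of both probes. Isl1, another LIM homeodomain factor of the early pituitary, was also below background on every array.

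**Figure D4:**
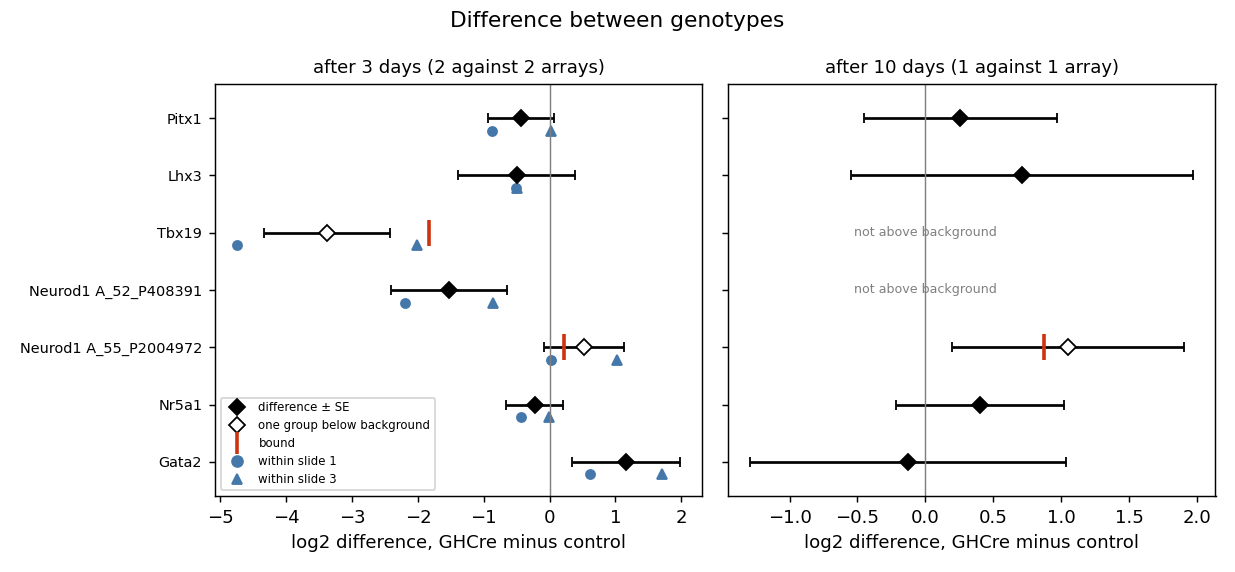
Log2 difference between genotypes (GHCre minus control) of the 7 tested probes after 3 and 10 days, as the difference ± SE of the limma fit, with the values within slide 1 and slide 3 and, where a group was not above background, the bound. Tbx19, at -3.38 with a bound of -1.84, is the probe farthest from 0 after 3 days, and after 3 days the interval of 1 SE includes 0 for Pitx1, Lhx3, Nr5a1 and the second Neurod1 probe.

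Set against time, none of the 4 genes measured on every array passed limma's test between 10 and 3 days over both genotypes, in a fit whose spread comes from the 3 day arrays. The differences were -0.076 ± 0.44 for Pitx1, 0.26 ± 0.77 for Lhx3, 0.24 ± 0.38 for Nr5a1 and 0.35 ± 0.71 for Gata2, with 0 of 4 past the threshold, where 0% of all probes passed and 4.03% had an unadjusted p under 0.05. With the replicate number as a block the difference was 1.05 ± 0.41 for Lhx3 (adjusted p = 0.704), -0.30 for Gata2 and 0.098 for Pitx1. On slide 3, where both days of the GHCre genotype are present, 10 days minus 3 days was -0.13 for Pitx1, 0.08 for Lhx3, 0.51 for Nr5a1 and 0.09 for Gata2, with no replicate. The difference between the genotype effects after 10 and 3 days was 0.69 ± 0.87 for Pitx1, 1.21 ± 1.54 for Lhx3, 0.63 ± 0.75 for Nr5a1 and -1.29 ± 1.42 for Gata2, and 0 of 4 passed, as did 0% of all probes tested (4.14% at an unadjusted p under 0.05). Between genotypes after 10 days 0 of these 4 probes passed, as did 0% of all probes (3.05% at an unadjusted p under 0.05).

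The partners of these factors were measured more fully than the factors. Of 18 listed cofactors and repressors tested, 8 were higher and 10 lower in GHCre mice after 3 days, with a median of -0.01 and 0 past the test. Ldb1, the bridge protein of LIM factors, stood at 3.15 and 2.39 in the 3 day controls, 2.77 and 2.75 in the GHCre arrays, 2.59 in the 10 day control and 3.00 in the 10 day GHCre array. Ncoa1, a coactivator of nuclear receptors, had the lowest unadjusted p of this list, with controls at -2.55 and -2.02 and GHCre arrays at -0.50 and -0.67, a difference of 1.70 ± 0.46 that did not pass (adjusted p = 0.703 with limma). Of 22 other pituitary transcription factors tested, 11 were higher and 11 lower after 3 days (median 0.02) and 15 higher and 7 lower after 10 days (median 0.32), where 50% of all genes were higher. None passed in limma's test, and 0 of the 22 had an unadjusted p under 0.05.

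The genes most like the 4 measured factors over the 6 arrays, by Pearson's r of log2 levels among 11681 genes, were Thoc3, Exosc7 and Trp53inp2 for Pitx1 (0.987 to 0.995), Gm9736, Zc3h12c and Spata2l for Lhx3 (0.993 to 0.994), Patl1, Eid2b and Hsdl2 for Nr5a1 (0.979 to 0.990) and Colgalt1, Cish and Pnrc2 for Gata2 (0.990 to 0.998). With 6 arrays such values are common: r exceeded 0.9 for 151 genes with Pitx1, 241 with Lhx3, 70 with Nr5a1 and 222 with Gata2. Arrays of a slide share it, so the likeness to Lhx3 includes the division by slide.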

How the data were processed

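The 6 one-colour Agilent arrays were scanned and read with Feature Extraction 10.7.3.1, per the file headers. The deposited scanner files give the processed signal as an intensity, corrected for background by that software. The authors' deposited table holds log2 values for 38017 probes, which correlate at 0.9999 or more with quantile-normalized processed signals of the same arrays, with column medians from 5.50 to 5.54; how the authors normalized is not given in the sources used here.

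From 43020 spots that are not controls, outlier spots were left out (unless all spots of a probe were outliers, 32 values), spots of a probe averaged (39429 probes), and log2 signals scaled to each array's 75th percentile. Probes well above background on at least 2 arrays (27249) were fitted with limma 3.58.1 in R 4.3.3, with group means over all 6 arrays, eBayes and Benjamini-Hochberg adjustment over all tested probes at 0.05. The 10 day groups have 1 array each, which is assumed to vary like the 3 day arrays. A group below background has a nominal bound, the other group's mean against, per array, the higher of 2 signals. These are the lowest signal called above background for any probe and the probe's own. The scripts' estimates were tested on simulated data. Members and gene lists were chosen with earlier results of these data known. Text names all members, the main hormone and factor genes, up to 3 genes of lowest p per list, the 3 genes most like each member, and others said to be chosen after their values were seen. Genes of lists were matched through RefSeq accessions (27234 probes) or, failing that, the symbol on the array (3576 probes). Where a gene had several probes, lists used the one of highest mean level. Replicate numbers in the titles coincide with the slides of the 3 day arrays. Deviations of same-numbered arrays correlated at 0.09 (2 pairs, 27249 probes), too low to treat the arrays as pairs, though 2 pairs do not show what else same-numbered arrays share. Alternatives were other scaling, background correction and filters, the deposited table, a trended prior, blocks for slide or replicate number, 1 probe per gene, and each 3 day array left out. Some genes of the lists are not reported here by name.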

Additional observations from a re-analysis of the deposited data

Results flagged for a closer look

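Nr5a1 lay lower in both GHCre arrays than in both controls after 3 days and higher in the GHCre array than in the control after 10 days. The gap after 3 days was small, with the nearest arrays on slide 3 at 0.04 (GHCre) and 0.05 (control), and there is 1 array a group after 10 days, so the pattern of directions itself was not tested. The fitted difference between the effects was 0.63 ± 0.75 (limma, adjusted p = 1.00), which does not pass.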

How the results depend on the processing

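Over 20 results on the named factors and 14 settings, where each could be fitted, 252 values kept their sign and their side of the threshold, 10 turned sign, and none passed an adjusted p of 0.05 in limma's test. Many of the 252 could not turn sign: the filters, the trended prior and 1 probe per gene leave the estimate unchanged. The replicate block also leaves the genotype differences after 3 and 10 days, and the difference between them, unchanged. The slide block leaves the difference after 3 days unchanged. The omission of a 3 day array leaves the genotype difference after 10 days unchanged. The number of probes called was 0 in each comparison and setting. With the replicate number as a block, the difference between 10 and 3 days turned to -0.30 for Gata2 and 0.098 for Pitx1 and grew from 0.26 to 1.05 for Lhx3, and no call changed. The slide block could be fitted for the 3 day comparison alone. With normexp and the 75th percentile the second Neurod1 probe turned to -0.17 after 3 days. Leaving out a 3 day array leaves its group on 1 slide, so the slides are unbalanced between the groups. With each left out in turn, the 3 day difference ran from -0.089 (without control replicate 2) to 1.13 for that probe and from -1.29 to 0.30 for Lhx3 (0.29 without control replicate 2). The day difference ran from -0.11 (without control replicate 2) to 0.82 for Gata2, from -0.13 (without replicate 1 of either group) to 0.66 for Lhx3 and from -0.27 to 0.12 (without GHCre replicate 2) for Pitx1. The bounds, recomputed as an alternative added after seeing the data, ran from 1.54-fold to 8.28-fold lower for Tbx19 and from -0.46 to -3.81 on the log2 scale for Avpr1b. Low signal limits Tbx19, Neurod1, Lhx4 and Hesx1.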
